A study of Mus musculus with 12 samples.

Results

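The 8 genes described here encode receptors that dendritic cells and macrophages use to take up sugars, lipids, lipoproteins and dying cells: the C-type lectins Ly75, Clec7a, Clec4n and Clec4a2, the scavenger receptors Cd36, Msr1 and Scarb1, and the TIM family receptor Havcr2. They were chosen by name, with earlier results of these data known. Every probe set annotated to only one of these symbols was read, which gave 17 of the 45101 probe sets of the table. A further probe set that carried the symbols of both Clec4a2 and Clec4b1 was left out. Of the 17 probe sets, 16 passed a filter on low values, and all 8 genes were among the 15019 genes tested.

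Gene expression was measured on Affymetrix mouse arrays in dendritic cells (DCs) that were enriched from spleen with CD11c beads and purified by flow sorting. The study set alymphoplasia (aly) mice, which carry a point mutation of Map3k14 (NF-kappa-B-inducing kinase, NIK, the kinase that starts the non-canonical NF-kB pathway), beside heterozygous littermates. The littermates are called WT here as in the labels, although each carries 1 mutant allele. The mutation is in the germ line, so every cell of an aly mouse carries it, and the age of the mice was not given. The 4 groups were aly mice and WT mice that had received 25 micrograms of LPS (a ligand of Toll-like receptor 4) together with 100 micrograms of an agonistic antibody to CD40 into the peritoneum 6 hours earlier, and aly mice and WT mice that were not treated. The untreated mice received no injection of vehicle or control antibody that the labels mention. Each group had 3 arrays, and each array held DCs pooled from 3 mice, so p-values measure the spread between pools. In such bulk RNA, fewer cells of a type and less RNA per cell cannot be told apart.

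Uptake receptors of DCs feed captured material into antigen processing, and immature DCs are known for taking up more than mature ones, which turn to presentation and migration. C-type lectins bind sugars or other ligands through a C-type lectin-like domain, and some signal through Syk and Card9 or, as inhibitory receptors, through phosphatases. Scavenger receptors bind modified lipoproteins and other polyanions, and TIM receptors bind phosphatidylserine on dying cells. In mouse spleen, Ly75 (DEC-205), Cd36 and Havcr2 (TIM-3) are known as markers of the CD8 alpha positive DC subset, cDC1.

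The promoters of Ly75, Cd36 and Havcr2 are shown because these genes passed the test in treated WT DCs, Ly75 in the opposite direction to the others. Each sequence runs 5′ to 3′ on the strand of the gene, from 250 bases before to 50 bases after the transcription start annotated by RefSeq, on build GRCm38.p6, and capitals mark a match to a searched motif. RefSeq promoters were matched for 5 of the 8 genes, with 6 promoters in all, and not for Clec4n, Msr1 and Scarb1.
Ly75 (chr2:60383224-60383523, minus strand): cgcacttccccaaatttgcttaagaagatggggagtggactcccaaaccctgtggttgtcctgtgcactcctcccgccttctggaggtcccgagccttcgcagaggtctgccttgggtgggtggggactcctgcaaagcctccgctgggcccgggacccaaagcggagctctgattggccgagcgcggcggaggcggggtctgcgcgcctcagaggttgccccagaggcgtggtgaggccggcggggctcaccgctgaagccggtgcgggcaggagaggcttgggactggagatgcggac
Cd36 (chr5:17835847-17836146, minus strand): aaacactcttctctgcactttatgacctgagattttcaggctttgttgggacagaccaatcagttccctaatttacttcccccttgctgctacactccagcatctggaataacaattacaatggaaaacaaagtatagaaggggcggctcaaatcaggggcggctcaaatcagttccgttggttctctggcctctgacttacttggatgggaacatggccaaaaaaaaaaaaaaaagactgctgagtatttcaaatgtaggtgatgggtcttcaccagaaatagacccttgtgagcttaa
Havcr2 (chr11:46454681-46454980, plus strand): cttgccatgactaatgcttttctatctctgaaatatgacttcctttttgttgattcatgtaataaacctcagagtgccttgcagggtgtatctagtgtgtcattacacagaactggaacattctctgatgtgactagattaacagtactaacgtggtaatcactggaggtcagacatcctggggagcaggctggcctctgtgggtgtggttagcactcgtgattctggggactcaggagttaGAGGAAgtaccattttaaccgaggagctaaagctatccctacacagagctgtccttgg
The Ly75 promoter held 21 CpG dinucleotides at 67% G and C, against 3 CpG at 43% in that of Cd36 and 3 CpG at 45.3% in that of Havcr2, while the median over all 32851 RefSeq promoters was 7 CpG and 52.7%. Both strands were searched for an NF-kB consensus, an interferon-response core of GAAANNGAAA and an ETS core of GAGGAA. The one match in the 3 sequences was GAGGAA, starting 8 bases before the start of Havcr2, a motif that 28.3% of all promoters held. The NF-kB consensus stood in 8.46% and the interferon-response core in 3.44% of all promoters. These matches describe the letters of the windows, not bound sites.

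The array of treated aly replicate 1 stood apart from the other 11. Its signal for Actb was 55.8 times as high at the 3′ as at the 5′ end, and its Spearman correlation with any other array was at most 0.665. The effect of leaving it out is given beside the results that it moved. The ratio of 3′ to 5′ signal, a sign of RNA quality, also differed with genotype. Without that array it was 1.78 to 5.92 for Actb and 7.10 to 20.7 for Gapdh on the 5 aly arrays, against 1.39 to 1.94 and 4.58 to 8.73 on the 6 WT arrays. Its part in the genotype differences below was not tested. Aly arrays also carried more signal of macrophage markers than WT arrays, as given beside the genes it touches. Itgax, which encodes CD11c, read 230 to 3391 and the DC transcription factor Zbtb46 44 to 1183, both lowest on treated aly replicate 1. The summed intensity of the 8 listed pan-DC markers, which include both, was instead highest on that array, at 47650, against 19100 to 39480 on the other 11. Of lymphocyte markers, Ms4a1 of B cells reached 931, Cd79b 383, Cd5 of T cells 184 and Cd3g 46.7.

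In WT DCs the treatment moved the receptors in both directions. Ly75 rose, while Cd36 and Havcr2 fell, at a Benjamini-Hochberg adjusted limma p under 0.05 over all genes. Thus 1 of 8 genes was called higher and 2 of 8 lower, beside 4.95% of all genes called higher and 4.75% called lower. The median log2 change of the 8 genes was −1.87, against −0.12 over all genes tested. Changes are differences of log2(intensity + 16), which understates the change of genes with low values.

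Ly75 encodes DEC-205, an endocytic lectin-family receptor that delivers antigen to late endosomes. Its intensity was 1444, 637 and 1438 on the treated WT arrays, replicates 1 to 3, against 283, 122 and 354 on the untreated WT arrays. The lowest treated array thus lay above the highest untreated array. The log2 change was 2.17 ± 0.43 (SE, n = 3 arrays per group), a 4.49-fold rise with an adjusted p of 0.00447. The 3 differences between arrays of the same replicate number were close to each other, at 2.29, 2.24 and 1.98. Ly75 was also called in each of the 12 refits that left out 1 array, with log2 changes between 1.74 and 2.55.

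Clec7a encodes Dectin-1, the receptor for beta-glucan that signals through Syk. It read 637, 632 and 433 on treated WT arrays, against 1989, 1164 and 1828 on untreated WT arrays, with no overlap. Its log2 change of −1.51 ± 0.56 did not pass the test (adjusted p = 0.107).

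Clec4n encodes Dectin-2, a receptor for alpha-mannans that pairs with the Fc receptor gamma chain. It read 4086, 1413 and 725 on treated WT arrays, against 4989, 1612 and 701 on untreated WT arrays. The values spanned the same wide range in both groups, with replicate 1 the highest in each, and the log2 change was −0.14 ± 0.78 (adjusted p = 0.953).

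Clec4a2 encodes DCIR, an inhibitory lectin with a cytoplasmic ITIM. It read 188, 379 and 66.4 on treated WT arrays, against 870.4, 968 and 776 on untreated WT arrays, with no overlap. The log2 change of −2.23 ± 0.69 missed the threshold at an adjusted p of 0.0523. The second Clec4a2 probe set was dim, at 2.9, 3.4 and 8 on treated and 30.4, 33.7 and 37.6 on untreated WT arrays, again without overlap.

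Cd36 encodes a class B scavenger receptor for oxidised lipoproteins, long-chain fatty acids and dying cells. It read 54.5, 359 and 53.4 on treated WT arrays, against 956, 576 and 1814 on untreated WT arrays. Treated replicate 2 lay several times above the other treated arrays but still below all untreated ones. The log2 change was −3.05 ± 0.67, an 8.31-fold fall (adjusted p = 0.00849). All 3 Cd36 probe sets were called lower when every filtered probe set was tested, with log2 changes of −3.05, −3.27 and −2.29 (adjusted p = 0.00795, 0.00398 and 0.00364). The call was lost without untreated WT replicate 3 (adjusted p = 0.0582), treated WT replicate 1 (0.0544) or treated WT replicate 3 (0.0616).

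Scarb1 encodes SR-BI, a class B receptor for high-density lipoprotein. It read 150.3, 534 and 60.6 on treated WT arrays, against 1287, 1439 and 706 on untreated WT arrays, with no overlap. The log2 change of −2.54 ± 0.91 did not pass (adjusted p = 0.0915).

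Msr1 encodes the class A receptor SR-A, which binds modified low-density lipoprotein. It was dim in WT DCs, with 63, 26.2 and 8.6 on treated arrays, against 55.1, 20.8 and 58.6 on untreated arrays, and the groups overlapped (log2 change −0.42 ± 0.55, adjusted p = 0.744).

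Havcr2 encodes TIM-3, a receptor for phosphatidylserine and galectin-9. It read 45.7, 505 and 208 on treated WT arrays, against 1715, 1256 and 2679 on untreated WT arrays, with no overlap. The log2 change was −3.23 ± 0.79, a 9.38-fold fall (adjusted p = 0.0169). The call was lost without untreated WT replicate 1 (adjusted p = 0.057), untreated WT replicate 3 (0.081), treated WT replicate 1 (0.101) or treated WT replicate 3 (0.0586).

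**Figure D1:**
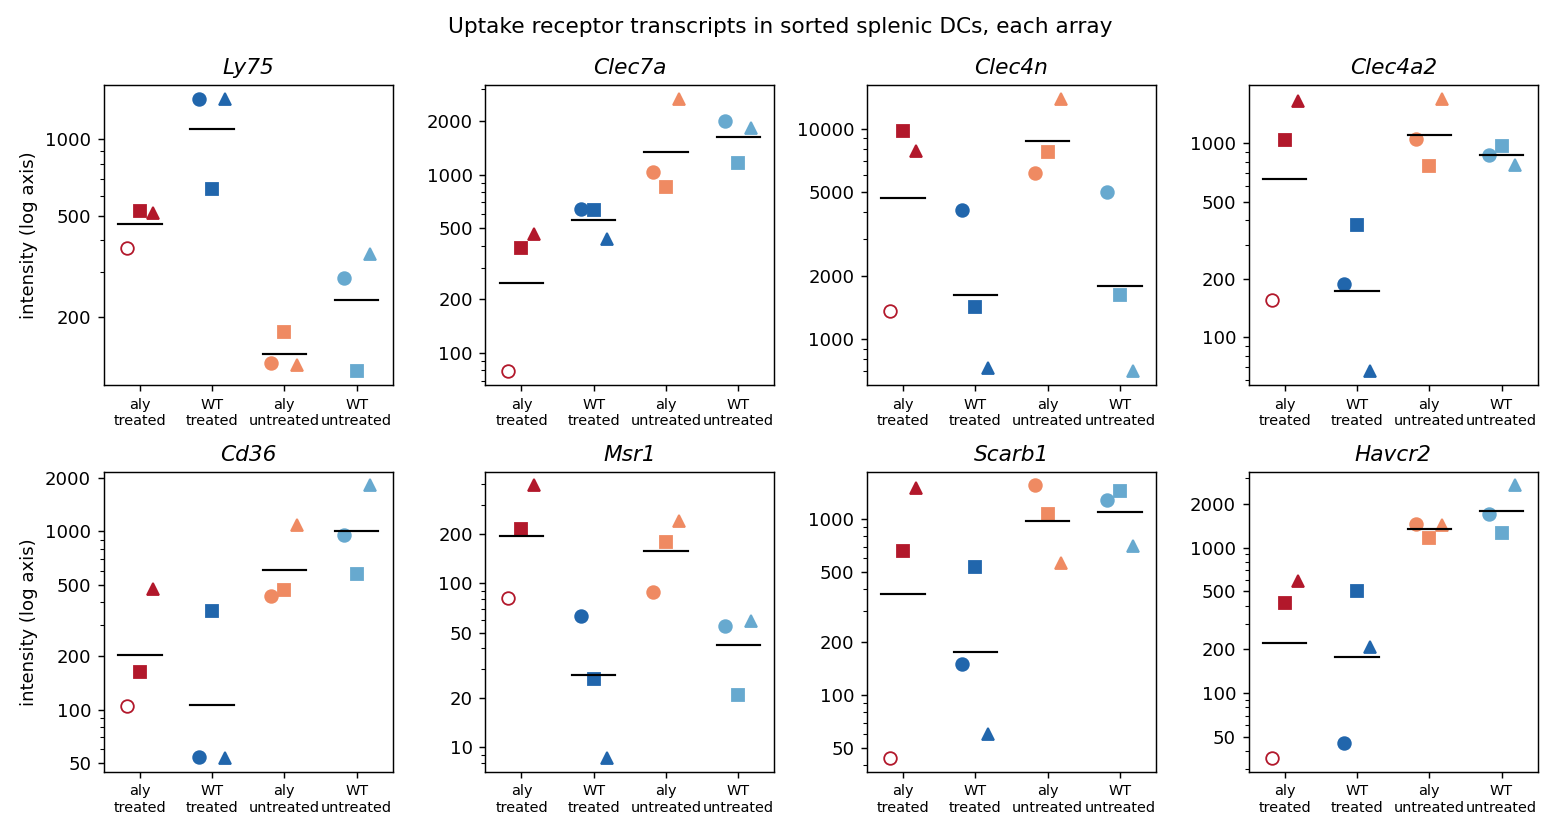
Intensity of the 8 receptors on each of the 12 arrays, on a log axis, with circles for replicate 1, squares for replicate 2 and triangles for replicate 3. The black bar is the mean of log2(intensity + 16) turned back to intensity, and the open circle is treated aly replicate 1, which lies lowest of the 3 treated aly arrays in all 8 genes; Ly75 is the one receptor whose treated arrays lie above the untreated ones in both genotypes.

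Counted over the probe set used for each gene, the arrays of treated and untreated WT DCs did not overlap for 1 receptor that was higher on treatment, Ly75, and for 5 that were lower, Clec7a, Clec4a2, Cd36, Scarb1 and Havcr2. Among all genes, 14.3% were separated in this way with the treated arrays higher and 22.1% with the treated arrays lower. Leaving out treated aly replicate 1 leaves the WT values as they are and lowers the estimated spread, with a median SE over all genes of 0.355, against 0.432 with it. The same log2 changes were then called lower for Clec7a (adjusted p = 0.0131), Clec4a2 (0.00283) and Scarb1 (0.00532) as well as Cd36 and Havcr2, 5 of 8 genes beside 11.1% of all genes called lower in that fit. Clec4a2 and Scarb1 also passed without treated WT replicate 2 (adjusted p = 0.0289 and 0.0418) or treated aly replicate 3 (0.0309 and 0.0487).

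In aly DCs none of the 8 genes was called on treatment, while 0.486% of all genes were called in either direction. At an unadjusted limma p under 0.05 were 4 of the 8, beside 1932 of all 15019 genes. The median log2 change of the receptors was −1.12, against −0.08 over all genes tested, and 0.01 for the receptors without treated aly replicate 1.

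Ly75 in aly DCs read 372, 524 and 510.3 on treated arrays, against 132, 174 and 129 on untreated arrays. All treated arrays lay above all untreated ones. The log2 change was 1.59 ± 0.43, a 3.01-fold difference that did not pass the test (adjusted p = 0.156), and 1.74 without treated replicate 1 (adjusted p = 0.131).

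Clec7a read 78.8, 386 and 465 on treated aly arrays, against 1036, 849 and 2667 on untreated aly arrays, without overlap. Its log2 change was −2.35 ± 0.56 (adjusted p = 0.0868), and −1.61 without treated replicate 1 (adjusted p = 0.17). Without treated aly replicate 3 it was −2.79 and passed (adjusted p = 0.0483), the one array whose removal called a receptor in aly DCs.

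Havcr2 read 35.8, 416 and 591 on treated aly arrays, against 1450.1, 1171 and 1436 on untreated aly arrays. These groups did not overlap either, and the log2 change was −2.51 ± 0.79 (adjusted p = 0.254), or −1.41 without treated replicate 1 (adjusted p = 0.561).

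For the other 5 receptors, the probe set used for the gene overlapped between treated and untreated aly arrays, while 1 other probe set each of Cd36 and Scarb1 was lower on all treated arrays. Clec4a2 read 156, 1035 and 1652 on treated aly arrays, against 1051, 762 and 1700 on untreated aly arrays, a log2 change of −0.75 ± 0.69 (adjusted p = 0.648). Without treated replicate 1 its change was 0.24 (adjusted p = 0.934), of the opposite sign. Cd36 read 104, 162 and 476 on treated aly arrays, against 434, 468 and 1091 on untreated aly arrays, a log2 change of −1.50 ± 0.67 (adjusted p = 0.371), or −1.07 without treated replicate 1 (adjusted p = 0.719).

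Scarb1 had the widest spread of the 8, with 44, 656 and 1500.2 on treated aly arrays, against 1558, 1077 and 566 on untreated aly arrays. Treated replicate 1 thus lay below all untreated aly arrays, and treated replicates 2 and 3 lay within their range. The log2 change of Scarb1 was −1.34 ± 0.91 (adjusted p = 0.521), or 0.01 without treated replicate 1. Clec4n had a log2 change of −0.89 ± 0.78 and Msr1 of 0.27 ± 0.55 (adjusted p = 0.629 and 0.857), and without treated replicate 1 these were 0.00 and 0.83. Of all genes, 6.02% were separated with the treated aly arrays higher and 8.56% with them lower, beside 1 receptor, Ly75, and 2 receptors, Clec7a and Havcr2.

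**Figure D2:**
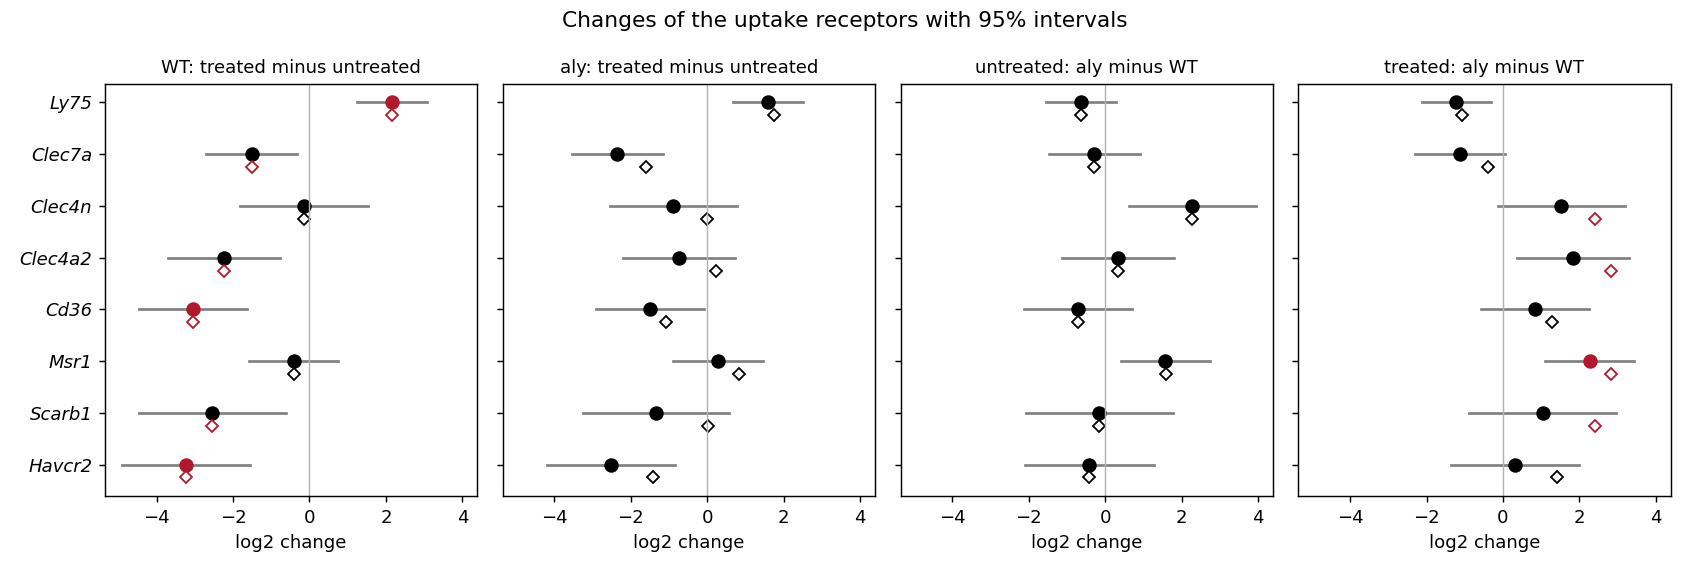
Log2 changes of the 8 receptors (x axis) in 4 contrasts, 1 panel each, as filled circles with 95% intervals of the limma fit, where red marks an adjusted p under 0.05 and diamonds give the value without treated aly replicate 1. Among the filled circles, Ly75, Cd36 and Havcr2 are red in the response of WT DCs and Msr1 is red in treated aly DCs against treated WT DCs, and none is red in the other panels.

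The difference between the responses was tested directly as an interaction, the change in aly DCs minus the change in WT DCs. No receptor was called there, while 0.153% of all genes were called. At an unadjusted limma p under 0.05 were 0 of 8 receptors, beside 1202 of all 15019 genes. The estimates were 1.55 (95% interval −0.45 to 3.55) for Cd36, 1.49 (−0.59 to 3.56) for Clec4a2 and −0.58 ± 0.61 for Ly75. The intervals of Cd36 and Clec4a2 include 0 and also differences of more than 3 log2 units. With array weights, which give less weight to arrays that deviate from the fit, Clec4a2 passed in the interaction (2.48, adjusted p = 0.0461). That setting called 360 of all 15019 genes there, against 23 without weights. Without treated aly replicate 1 no receptor was called, the estimate being 2.47 for Clec4a2 (adjusted p = 0.12) and 2.55 for Scarb1 (0.194). In that fit 4 of 8 receptors had an unadjusted limma p under 0.05, a count given here without the share of all genes. The median SE of the interaction over all genes was 0.533 there, against 0.611 with that array. The count is therefore not read as a result about the receptors.

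Between untreated aly and untreated WT DCs, none of the 8 receptors passed the test, while 0.553% of all genes were called. At an unadjusted limma p under 0.05 were 2 of the 8, beside 1569 of all 15019 genes. Same-numbered arrays of these groups deviated together from their group means, and with the number as a block 133 genes were called, against 83 without it, and still 0 of the 8 receptors (Clec4n adjusted p = 0.268, Msr1 0.264). Those 2, Clec4n and Msr1, were the receptors whose arrays did not overlap between genotypes, both higher in aly, beside 12.9% of all genes separated in that direction. Clec4n read 6164, 7711 and 13909 on untreated aly arrays, against 4989, 1612 and 701 on untreated WT arrays. WT replicate 1 came close to the lowest aly array, whereas the other WT arrays lay far below. The log2 difference was 2.28 ± 0.78 (95% interval 0.61 to 3.94, adjusted p = 0.276). The second Clec4n probe set, with 763, 699.5 and 2079 on untreated aly arrays, against 519.7, 149 and 102 on untreated WT arrays, gave a difference of 2.27 (adjusted p = 0.252 over filtered probe sets).

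Msr1 read 88.2, 179 and 239 on untreated aly arrays, against 55.1, 20.8 and 58.6 on untreated WT arrays, a log2 difference of 1.57 ± 0.55 (adjusted p = 0.281). In the fit without treated aly replicate 1, whose removal lowers the estimated spread, the adjusted p was 0.0622 for Clec4n and 0.0738 for Msr1. The other 6 receptors differed by −0.71 (Cd36) to 0.35 (Clec4a2) on the log2 scale before treatment, and Ly75 by −0.64 ± 0.43 (adjusted p = 0.651).

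Between treated aly and treated WT DCs, Msr1 was higher in aly and was the 1 receptor called, beside 2.74% of all genes called higher. The median log2 difference of the 8 genes was 0.94, against 0.19 over all genes tested, and 1.90 for the 8 genes without treated aly replicate 1. Msr1 read 81.1, 214 and 393 on treated aly arrays, against 63, 26.2 and 8.6 on treated WT arrays. The groups did not overlap, although replicate 1 of each lay close to the other. Ranked among all probe sets of its own array, aly replicate 1 was at percentile 63.1, below WT replicate 1 at 69. The median of that aly array was 53.4, against 21.5 to 23.9 on treated WT arrays. The log2 difference was 2.27 ± 0.55, 4.81-fold (adjusted p = 0.027). Msr1 was called in 8 of the 12 refits that left out 1 array, and lost without treated WT replicate 2 (adjusted p = 0.0697), treated WT replicate 3 (0.178), treated aly replicate 2 (0.0713) or treated aly replicate 3 (0.0568). The call was also lost with an offset of 1 (adjusted p = 0.0769), median centring (1.92, 0.101), quantile normalization (1.92, 0.0855) or only the compared groups in the fit (0.129). Of its other filtered probe sets, 1 was also separated between genotypes by intensity. It read 48.2, 71.1 and 102.5 on treated aly arrays, against 30.4, 28.6 and 24.5 on treated WT arrays, with a difference of 0.99 (adjusted p = 0.204). By rank, its value on aly replicate 1 was at percentile 47.2, below all treated WT arrays (57.6, 53.8 and 52.9). The remaining filtered probe set gave 0.61 (adjusted p = 0.511).

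Ly75 was the receptor whose treated aly arrays, at 372, 524 and 510.3, all lay below the treated WT arrays, at 1444, 637 and 1438. Its log2 difference was −1.22 ± 0.43 (adjusted p = 0.107), and −1.06 without treated aly replicate 1 (adjusted p = 0.167). Treated WT replicate 2 was the array nearest to the aly values. Among all genes, 14.1% were separated with the treated aly arrays higher and 10.1% with them lower, beside 1 of the 8 receptors in each direction.

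For the remaining receptors, the probe set used for the gene overlapped between the treated genotypes. Clec4a2 read 156, 1035 and 1652 on treated aly arrays, against 188, 379 and 66.4 on treated WT arrays, where aly replicate 1 was the exception among high aly values (log2 difference 1.83 ± 0.69, adjusted p = 0.129). Clec4n read 1359, 9719.5 and 7813 on treated aly arrays, against 4086, 1413 and 725 on treated WT arrays, a log2 difference of 1.53 ± 0.78 (adjusted p = 0.257). Aly replicate 1 was again the low aly array. The log2 differences of the others were 1.04 ± 0.91 for Scarb1, 0.84 ± 0.67 for Cd36, 0.31 ± 0.79 for Havcr2 and −1.12 ± 0.56 for Clec7a (adjusted p = 0.515, 0.473, 0.844 and 0.244). Without aly replicate 1 the differences of Cd36, Havcr2 and Clec7a were 1.27, 1.41 and −0.39, none called.

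Without treated aly replicate 1, 4 of the 8 receptors were called higher in treated aly DCs, beside 4.13% of all genes. They were Clec4a2 (log2 difference 2.82, adjusted p = 0.00462), Msr1 (2.82, 0.00422), Clec4n (2.42, 0.0454) and Scarb1 (2.40, 0.0329). Those calls set 2 aly arrays against 3 WT arrays.

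**Figure D3:**
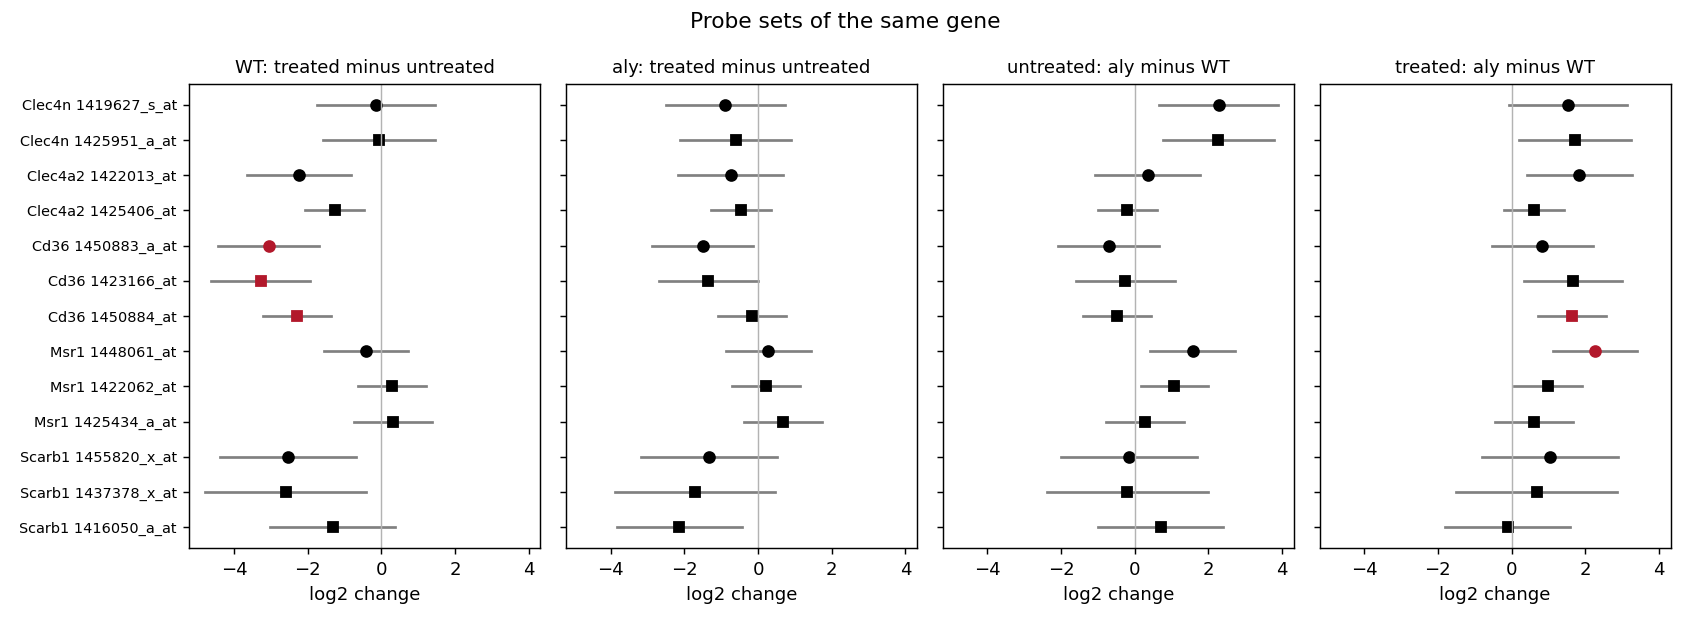
Log2 changes (x axis) with 95% intervals for the 13 filtered probe sets of the 5 receptors that had more than 1, in 4 contrasts, 1 panel each, where circles are the probe set used for the gene, squares the others, and red an adjusted p under 0.05 in the fit of all filtered probe sets. All 3 Cd36 probe sets are red in the response of WT DCs, and Msr1 shows differences of 2.27, 0.99 and 0.61 between treated aly and treated WT DCs.

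The probe sets of a gene differed in some calls. For Cd36 in treated aly against treated WT DCs, 1 of 3 probe sets was called higher, at 1.66 (adjusted p = 0.0443), while the others gave 1.67 (0.146) and 0.84 (0.483). For Scarb1 in the WT response the 3 gave −2.54, −2.59 and −1.32, none called, and in treated aly against treated WT DCs they ranged from −0.11 to 1.04. The names of the probe sets used for Scarb1 and Clec4n carry the suffixes _x_at and _s_at, which mark probes that may match more than 1 transcript. Clec4n and Clec4a2 lie in 1 cluster of lectin genes on chromosome 6, with 1 protein-coding gene between them. Whether their probe sets match related transcripts was not tested. One dim Msr1 probe set, at 0.6 to 11.5, failed the filter.

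Of 12 listed markers of red pulp macrophages, all tested, 7 were called higher in aly before treatment and 5 after it, beside 0.499% and 2.74% of all genes. Without treated aly replicate 1 the counts were 11 and 4, with 4.13% of all genes called higher after treatment. The share of all genes before treatment is not given for that fit. The summed intensity of the 12 markers was 27700 to 52990 on treated aly arrays, 2467 to 14580 on treated WT arrays, 39960 to 62590 on untreated aly arrays and 2438 to 15800 on untreated WT arrays. C1qa, a complement component made by tissue macrophages, read 5449, 3194 and 2259 on treated aly arrays, against 1187, 321 and 182 on treated WT arrays. It read 5172, 2701 and 2454 on untreated aly arrays, against 638, 35.2 and 54.6 on untreated WT arrays. Among WT arrays replicate 1 had the highest C1qa in both conditions, as it had the highest Clec4n. Msr1 was highest on replicate 1 of the treated WT arrays (63). On untreated WT arrays it was highest on replicate 3 (58.6, against 55.1 on replicate 1). None of Spic, C1qa and C1qb, the markers listed first, was at 0. Clec4n and Msr1 are also expressed by macrophages, and the part of these markers in their genotype differences was not tested.

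Markers of cDC1 moved with treatment. Of 12 listed, 11 were tested, and 7 fell in WT DCs (median log2 change −2.91), beside 4.75% of all genes. In aly DCs 0 of 11 were called (median −1.45, or −0.60 without treated aly replicate 1), beside 0.486% of all genes. Between treated aly and treated WT DCs 1 of 11 was higher, and 5 without that array, beside 2.74% and 4.13% of all genes. The summed intensity of the 11 markers was 7002 to 18050 on treated aly arrays, 5377 to 11150 on treated WT arrays, 24980 to 27480 on untreated aly arrays and 16250 to 26960 on untreated WT arrays. Xcr1, the chemokine receptor of cDC1, read 16.1, 201 and 1.9 on treated WT arrays, against 579, 418 and 1881 on untreated WT arrays. As for Cd36 and Havcr2, treated WT replicate 2 was the highest of the treated WT arrays. The part of the cDC1 share in the falls of Cd36 and Havcr2, or in the rise of Ly75, was not tested.

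**Figure D4:**
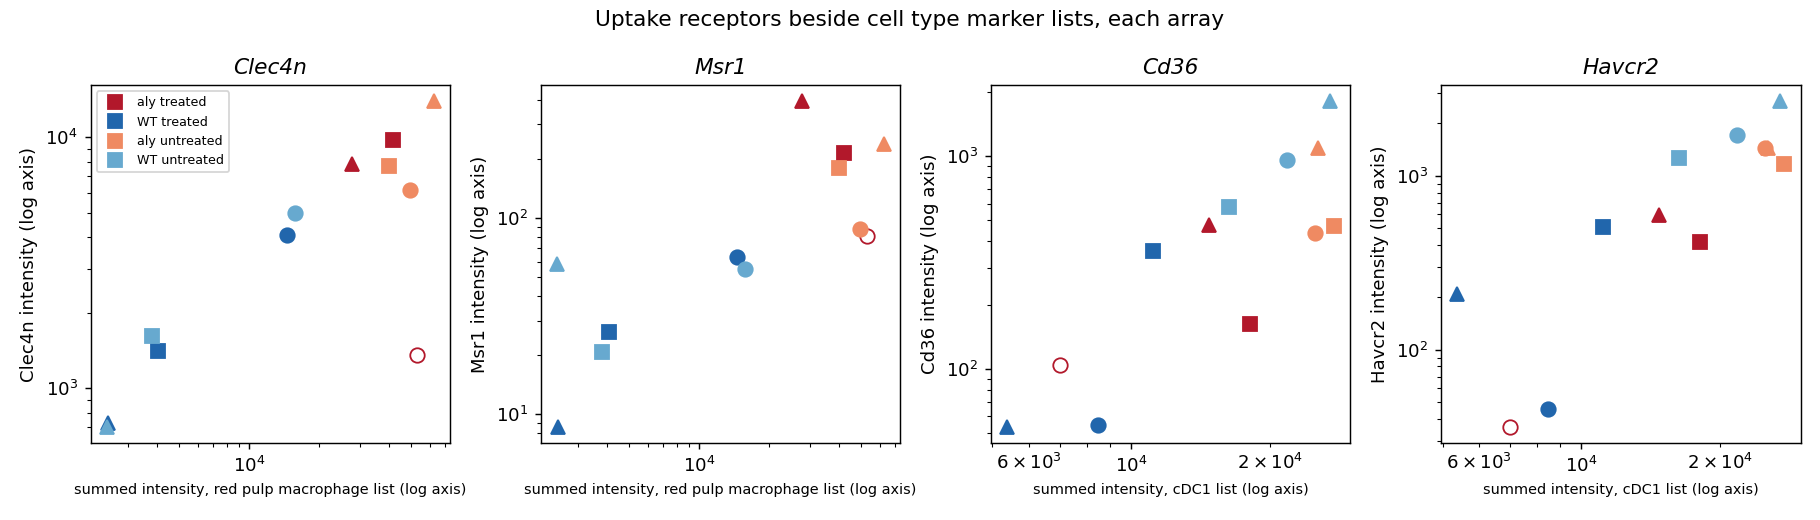
Receptor intensity (y axis, log scale) against the summed intensity of a marker list (x axis, log scale) on each array, with Clec4n and Msr1 beside the red pulp macrophage list and Cd36 and Havcr2 beside the cDC1 list; colours are the groups, circles replicate 1, squares replicate 2, triangles replicate 3, and the open circle is treated aly replicate 1. The WT arrays with the highest macrophage sums, 14580 and 15800, also have the highest Clec4n of the WT arrays, 4086 and 4989, whereas treated aly replicate 1 has a sum of 52990 and a Clec4n of 1359. Msr1 of untreated WT arrays is highest, at 58.6, on replicate 3, which has the lowest sum, 2438.

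Other uptake receptors were read from lists of related genes. Of all genes, 4.95% were called higher and 4.75% lower in the WT response. Against WT, 0.499% were called higher in untreated aly DCs, and 2.74% higher and 2.64% lower in treated aly DCs. In the fit without treated aly replicate 1, 11.1% were called lower in the WT response and 4.13% higher in treated aly DCs. The list counts of that fit in other directions are given without such a share. They are therefore not read as results about the lists. Of 29 tested lectin receptors outside the 8, 1 rose and 4 fell in treated WT DCs, with a median log2 change of −0.41, and 3 rose and 6 fell without treated aly replicate 1. Cd69, an early activation marker with a lectin-like domain, rose by 2.34 ± 0.40 (adjusted p = 0.00152). The falls were those of Cd209a (−3.04 ± 0.53, adjusted p = 0.00173), Cd209b, Cd207 and Cd209e. Cd209a is a DC-SIGN relative and Cd207 encodes langerin. Cd69, Cd209a and Cd209b were called in all 12 refits that left out 1 array, Cd207 in 10 and Cd209e in 8. In aly DCs and in the interaction 0 of the 29 were called. Before treatment 3 were higher in aly, Clec1b (3.51, adjusted p = 0.0266), the mannose receptor Mrc1 (4.17, 0.0309) and Cd302 (2.62, 0.0459), and after treatment Clec1b alone was called (3.18, 0.0116), or 3 genes without treated aly replicate 1.

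Of 14 tested scavenger receptors outside the 8, 1 rose and 1 fell in treated WT DCs, beside 4.95% and 4.75% of all genes. Without treated aly replicate 1, 4 of them rose and 3 fell. Marco, a class A receptor of marginal zone macrophages, rose by 3.47 ± 0.98 (adjusted p = 0.035) and was called in 9 of 12 refits. Cd163, the haemoglobin scavenger receptor of macrophages, fell by 2.21 on the log2 scale (adjusted p = 0.0499) and was called in 4 of 12 refits. Against WT, 4 were higher in untreated aly DCs, Lrp1 (3.53, adjusted p = 0.0182), Stab2 (3.17), Cd163 (3.53) and Cd5l (4.29). In treated aly DCs 3 were higher, Cd163 (3.72, adjusted p = 0.00704), Stab2 (2.85) and Cd5l (3.79). Cd163 is also in the red pulp macrophage list and Marco and Cd5l are in the marginal zone macrophage list. Cd209b and Timd4 are in the latter list too. Of its 6 tested markers, 2 rose in treated WT DCs, Marco and Timd4, and 1 fell, Cd209b. Their summed intensity was 1045 to 8170 on treated and 294.6 to 3211 on untreated WT arrays, and 10910 to 39770 and 7531 to 14900 on the aly arrays.

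Of 14 receptors and bridging molecules for phosphatidylserine, all tested, Timd4 (TIM-4) rose in treated WT DCs, by 2.55 ± 0.48 (adjusted p = 0.00312), and was called in all 12 refits, in the contrast in which Havcr2 fell. In the fit without treated aly replicate 1, 2 of the 14 rose and 1 fell there. In untreated aly DCs C1qa, Itgb5, Mertk and Axl were higher than in WT. In treated aly DCs Itgb5 (3.10, adjusted p = 0.00277), the bridging protein Gas6 (1.47, 0.0399) and C1qa (2.99, 0.041) were higher. Without treated aly replicate 1, Gas6 (adjusted p = 0.0694) and C1qa (0.0714) were not called in treated aly DCs. The genotype calls before treatment in these lists held in 5 to 7 of the 12 refits that left out 1 array, and those after treatment in 9 to 12, except C1qa in 4 and Gas6 in 2. C1qa, Mertk and Axl, like Mrc1 above, are also in the red pulp macrophage list, and Timd4 is in the marginal zone macrophage list.

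Among 20 tested signalling partners and ligands, the one with opposite calls in the contrasts was Lgals9, which encodes galectin-9, a ligand of TIM-3. It read 463, 422 and 578 on treated WT arrays, against 52.4, 151 and 99.7 on untreated WT arrays, a rise of 2.19 ± 0.52, or 4.55-fold (adjusted p = 0.0142). It read 19.7, 70.8 and 197 on treated aly arrays, where it was 5.74-fold lower than on treated WT arrays (log2 difference −2.52 ± 0.52, adjusted p = 0.0133). All treated aly arrays lay below all treated WT arrays, and without treated aly replicate 1 the difference was −1.88 (adjusted p = 0.0148). The call of the genotype difference held in 11 of 12 refits and that of the WT rise in 8. In WT DCs the kinase Fyn rose (1.92, adjusted p = 0.00239) and the tetraspanin Cd9 fell (−2.07, 0.0087). Prkcd, the protein kinase C isoform that acts between Syk and Card9, was lower in treated aly DCs (−2.06, 0.0199), as was Bcl10 (−1.96, 0.0494), which was called in 1 of 12 refits. Of the 20, 7 rose and 1 fell in WT DCs without treated aly replicate 1, and 1 was higher and 3 lower in treated aly DCs. No member of these 4 lists was called in the aly response or the interaction, with or without that array.

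The genes whose pattern over the 12 arrays was most like that of each receptor are given as a description, since arrays of a group share condition and sorting. For Ly75 they were Enah (Pearson r = 0.966) and Trim30d (0.96). For Cd36 they were Lpar6 (0.974) and the cDC1 marker Xcr1 (0.969), and for Havcr2 Cyp27a1 (0.978) and AI467606 (0.977). For Clec4n they were the cholesterol exporter Abca1 (0.95) and Adamdec1 (0.938), for Msr1 Dpy19l3 (0.936) and Btbd11 (0.9), and for Clec7a Asah1 (0.967) and Trip13 (0.966). For Clec4a2 they were Cd200r1 (0.954) and Zcchc24 (0.948), and for Scarb1 Mrps15 (0.968) and Fads6 (0.964). Over the 11 arrays without treated aly replicate 1 these r lay between 0.923 and 0.976, and 3 of the 16 named genes were still among the first 2 for their receptor, the lowest rank being 20.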

How the data were processed

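Expression was read from 12 Affymetrix arrays, 3 for each of 4 groups. The deposited values are intensities on a linear scale with a trimmed mean of 150.001 on every array, so each array had been scaled to a common target; the software, including its background step, is unnamed in the sources used. Per the labels, RNA was amplified and labelled in a protocol with a second round of in vitro transcription, which lowers the signal of probes far from the 3′ end where RNA is degraded. Array medians were 21.5 to 53.4. The number of arrays limits the precision.

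Of 45101 probe sets, 34958 carried 1 symbol, 932 several and 9211 none, and 64 were controls. Values were used as log2(intensity + 16). A probe set was kept if 3 or more arrays held it above their 40th percentile (34205), and each gene was represented by the probe set with the highest mean log2 value (15019 genes). All columns were matched to samples. limma 3.58.1 in R 4.3.3 (with data.table, version 1.17.8) was fitted to 4 group means, with 8 residual and 8.04 prior degrees of freedom, and p-values were adjusted by Benjamini-Hochberg over all genes within each of 5 contrasts, with calls at 0.05. The fit was tested on simulated data. Presence calls were not used, so no gene is described as silent. The aly mutation is a point mutation, so the level of Map3k14 does not check the labels.

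The 8 receptors and all gene lists were chosen with earlier results of these data known. Named genes were the 8 receptors, up to 4 called genes per list and contrast with the smallest adjusted p, up to 3 defining markers per marker list described, and the 2 genes most correlated with each receptor. Deviations of same-numbered arrays from their group means correlated over 0.1 in all 3 pairs between untreated aly and untreated WT (0.156 to 0.227), but not in all pairs between any other groups (8 of 18 pairs over 0.1, against 2 of 36 with different numbers). The labels do not say what a number stands for. Alternatives covered the offset, the filter, scaling, array weights, variance settings, the choice of probe set, the replicate block and each array left out. Promoters come from RefSeq on GRCm38.p6, and no genome sequence was used.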

Additional observations from a re-analysis of the deposited data

How the results depend on the processing

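The count of called receptors in treated aly against treated WT DCs, 1 in the report, was 0 with an offset of 1, median centring, quantile normalization or only the groups compared in the fit, 3 with replicates 2 and 3 only, and 5 with array weights. In the WT response, 3 in the report, it was 6 with array weights and 6 with only the groups compared. Array weights also called more of all 15019 genes, 3370 in the WT response, against 1458 in the report. Between treated genotypes they called 2890, against 807. It was 1 with array weights in the aly response and 1 in the interaction (Clec4a2, 2.48, adjusted p = 0.0461), both 0 in the report, and 2 in the untreated genotype contrast with replicates 2 and 3 only (Clec4n 3.26 and Msr1 2.09). With 1 array left out these counts ranged from 1 to 6 in the WT response, from 0 to 1 in the aly response and from 0 to 4 between treated genotypes, and were 0 throughout in the untreated genotype contrast and the interaction. With the replicate number as a block the counts were 3, 0, 0, 1 and 0, as without it. No receptor call changed under the block. The receptor counts with replicates 2 and 3 only, and with only the groups compared in the WT response, are given without the share of all genes.

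Of the calls in the report, Havcr2 in the WT response was lost with an offset of 1 (adjusted p = 0.0743). Clec4a2, not called there, passed with trended and robust variances (0.0474). Signs turned for receptors that had not passed the test. Median centring gave −0.0429 for Havcr2 between treated genotypes. Array weights gave 0.153 for Clec4n and 0.147 for Clec4a2 in the aly response, 0.0354 for Scarb1 between untreated genotypes, and 0.0972 for Clec7a and 0.402 for Clec4n in the interaction. Replicates 2 and 3 alone gave 0.197 for Clec4a2 and 0.34 for Scarb1 in the aly response and 0.0464 for Clec7a between untreated genotypes. Leaving out 1 array gave ranges of −0.807 to 0.595 for Clec4n in the WT response. In the aly response they were −0.21 to 0.827 for Msr1, −1.41 to 0.000326 for Clec4n, −1.41 to 0.235 for Clec4a2 and −2.32 to 0.0133 for Scarb1. Between genotypes they were −0.477 to 0.24 for Scarb1 and −0.777 to 0.0399 for Clec7a untreated, and −0.515 to 1.41 for Havcr2 treated. In the interaction they were −0.105 to 1.82 for Havcr2 and −1.48 to 0.142 for Clec4n. The cause of these changes was not tested.

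Median centring moved the median of all genes from 0.188 to −0.162 between treated genotypes, and Msr1 was then 1.92 (adjusted p = 0.101). All genes called ranged over the settings from 587 to 3370 in the WT response, 6 to 164 in the aly response, 0 to 617 between untreated and 27 to 2890 between treated genotypes, and 1 to 360 in the interaction. The highest count of each contrast came with array weights, and the 27 with only the groups compared. Dim receptors such as Msr1 in WT are limited by their distance from background.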

Other observations

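For 6 of the 8 receptors, all but Clec7a and Msr1, treated WT replicate 2 lay nearest to the untreated WT mean among the 3 treated WT arrays. The same array was nearest for 1072 of the 1458 genes called in the WT response and for 7034 of all 15019 genes. Its mean signal over 27 probe sets of poly-A spike-in controls, RNAs of fixed amount added to a sample, was 442, against 4.39 to 147 on the other 11 arrays. Spike-in signal was between 4.39 and 20.4 on replicate 1 of the 4 groups and between 47.96 and 442 on replicates 2 and 3.

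The summed signal of 6 neutrophil markers was 15170 on treated aly replicate 1 and 3066 on untreated aly replicate 3, against 61.9 to 1023 on the other 10 arrays.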
